A study of Mus musculus with 45 samples.

Results

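Of 45 Trp53-null mouse mammary tumours profiled on expression arrays, the 6 with the highest levels of keratinocyte marker genes were set against 30 other epithelial tumours. They were chosen by measured values. The 9 tumours with the lowest mean log2 value of Cdh1, Epcam and Esrp1, genes of epithelial adhesion and epithelial splicing, were dropped. The 36 tumours kept were ranked by the mean log2 value of Sprr1a, Krtdap, Sbsn and Krt6a, and the first 6 were taken. These 7 genes are therefore not results, and genes that vary with the 4 ranking genes had to separate the sets to some degree. Differences between the sets are accordingly given as descriptions, with limma's adjusted p as a measure of the gap against the spread.

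All tumours arose from BALB/c Trp53-null mammary fragments. The hosts were females, wild-type and also BALB/c, aged 10 weeks at transplantation into the inguinal fat pad, which had been cleared of its own epithelium at an age of 3 weeks. Transplants were followed for 600 days. Hosts, not fragments, received 10, 30 or 80 cGy of silicon ions (Si) or a sham exposure, 3 days before transplantation. Each tumour was taken at 1 cm3 and measured on 1 array, giving 18 tumours from sham hosts, 9 at 10 cGy, 10 at 30 cGy and 8 at 80 cGy. The labels do not say whether each tumour came from a separate host, so p-values measure the spread between these tumours. In bulk tissue, fewer cells of a type and less RNA per cell cannot be told apart. The 6 top-ranked tumours were, in rank order, 10 cGy replicate 5, sham replicates 3, 8, 11 and 17, and 10 cGy replicate 8. Their values are given in this order throughout, as log2 expression, and those of the other 30 as the lowest, the median and the highest.

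Stratified squamous epithelium, such as epidermis, renews from a basal layer that carries Krt5 and Krt14 and rests on hemidesmosomes under the control of the transcription factor p63. Cells that leave this layer switch keratins, strengthen their desmosomes, lay down a cornified envelope crosslinked by transglutaminases, secrete barrier lipids and are finally shed by kallikrein proteases. Mammary epithelium shares the basal keratins and p63 in its myoepithelial layer but does not normally cornify, and its tumours can contain areas of squamous differentiation.

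The miRNA gene Mir205 is shown first because miR-205 is a small regulatory RNA of basal and stratified epithelium. The gene was singled out after its values were seen, and it passed the filter on low values only through the 6 top-ranked tumours. Its mature arms, from the RefSeq miRNA table (GRCm38.p6, minus strand, chr1:193507503-193507524 and chr1:193507467-193507488), are printed 5′ to 3′ with the seed, bases 2 to 8, in capitals.
mmu-miR-205-5p: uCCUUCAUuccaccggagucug
mmu-miR-205-3p: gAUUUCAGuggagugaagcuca
The arms have different seeds, and the array reports the gene, not the arm.

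Envelope genes were taken up because the mean of cornified envelope genes varied more among the 6 tumours, from 4.59 to 8.86, than that of the other 7 squamous lists. Promoters are shown of the envelope genes Sprr1b and Scel, of the ranking gene Sprr1a, and of Dmkn, which is on no list. Sprr1b, Scel and Dmkn are genes with large differences. Each is the 250 bases before the start site in the RefSeq promoter table (GRCm38.p6), printed in the direction of transcription. Capitals mark matches, on either strand, to the AP-1 motif TGANTCA and to the TATA motif TATAAA.
Sprr1b, chr3:92438780-92439029, minus strand: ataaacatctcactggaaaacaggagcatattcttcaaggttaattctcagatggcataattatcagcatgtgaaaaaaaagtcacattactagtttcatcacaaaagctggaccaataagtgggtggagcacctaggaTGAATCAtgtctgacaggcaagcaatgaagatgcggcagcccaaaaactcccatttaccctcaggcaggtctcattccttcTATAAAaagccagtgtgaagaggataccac
Scel, chr14:103513091-103513340, plus strand: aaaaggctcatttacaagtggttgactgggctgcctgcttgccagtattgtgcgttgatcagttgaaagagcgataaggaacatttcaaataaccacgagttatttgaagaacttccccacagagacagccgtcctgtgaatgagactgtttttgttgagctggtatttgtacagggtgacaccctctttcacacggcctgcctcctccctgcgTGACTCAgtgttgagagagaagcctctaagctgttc
Dmkn, chr7:30763506-30763755, plus strand: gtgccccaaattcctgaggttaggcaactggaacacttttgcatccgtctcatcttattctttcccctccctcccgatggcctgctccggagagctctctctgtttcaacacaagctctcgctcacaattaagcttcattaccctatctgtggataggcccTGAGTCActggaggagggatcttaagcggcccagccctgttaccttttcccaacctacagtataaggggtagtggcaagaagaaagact
Sprr1a, chr3:92485882-92486131, minus strand: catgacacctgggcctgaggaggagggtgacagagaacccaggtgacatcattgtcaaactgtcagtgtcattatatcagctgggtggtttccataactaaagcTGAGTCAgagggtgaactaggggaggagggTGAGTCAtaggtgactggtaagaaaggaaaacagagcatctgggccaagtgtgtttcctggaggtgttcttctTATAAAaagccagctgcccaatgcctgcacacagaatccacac
The AP-1 match began 111 bases before the start in Sprr1b, 36 in Scel and 89 in Dmkn. Sprr1a held a pair of matches, 146 and 116 bases before the start. All 4 promoters shown thus held the motif, but they are picked examples and do not represent the genes called higher. Sprr1b and Sprr1a also held TATAAA, 30 and 43 bases before the start. In windows of 300 bases, which add the 50 bases after each start, TGANTCA occurred in 14 of 36 cornified envelope genes (38.9%). It occurred in 19 of 161 genes called higher in the 6 tumours (11.8%), 1 of 34 called lower (2.94%), 5.10% of 9687 genes tested and 7.93% of all 27025 genes with a promoter. TATAAA was found in 15 of the 36 envelope genes (41.7%), 21 of the 161 called higher (13.0%), 7.52% of the genes tested and 14.2% of all. The envelope genes include copies of the Sprr2 and Lce families, which are similar in sequence. Their motif counts may therefore not be of independent promoters. The Grainyhead-like motif AACCNGNTT was found in 1 of the 36 (2.78%), 4 of the 161 (2.48%), 2.07% of the genes tested and 2.25% of all, and in none of the 4 promoters shown. The first promoter listed for a gene was used, both strands were searched, the motifs do not contain one another, and a match is only a match of letters.

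The ranking mean was 11.93, 11.57, 10.43, 8.59, 8.33 and 8.05 in the 6 tumours, and 7.67 and 7.46 in the next tumours, sham replicate 4 and 10 cGy replicate 7. The boundary lay within a gradual decline, and the widest step in the set was between ranks 3 and 4. Of the tumours dropped, sham replicate 6 had a ranking mean of 6.89 and the other 8 lay between 4.33 and 5.19. Leaving Sprr1a, Krtdap or Sbsn out of the ranking gave the same 6 tumours. Without Krt6a, 5 of the 6 remained and sham replicate 4 entered.

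**Figure D1:**
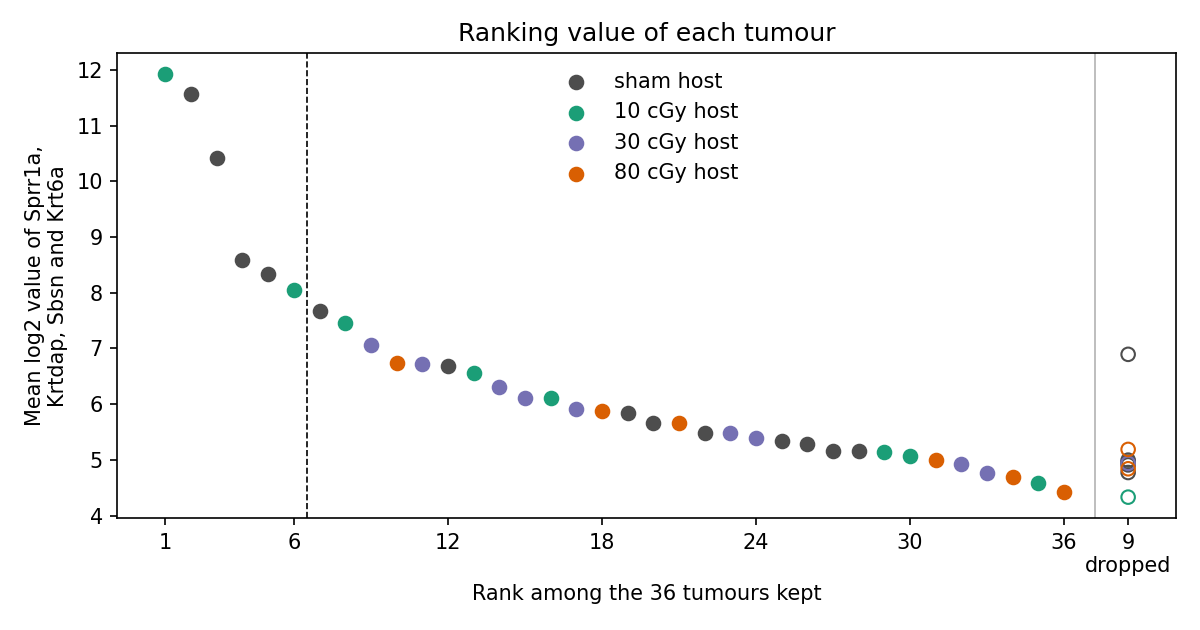
Mean log2 value of Sprr1a, Krtdap, Sbsn and Krt6a (vertical axis) in the 36 tumours kept, by rank (horizontal axis), with colours for the host group and the 9 dropped tumours as open circles at the right. The dashed line separates the 6 top-ranked tumours, at 8.05 to 11.93, from the other 30, the highest of which stood at 7.67.

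The ranking genes differed within the set; their high values follow from the rule and do not test the squamous label. Krtdap, a secreted protein of suprabasal keratinocytes, stood at 11.79, 10.50, 9.21, 5.00, 3.78 and 3.71. It was high in the first 3 tumours, while in ranks 4 to 6 it lay within the range of the other 30. Krt6a, a keratin of wounded and proliferating epidermis, stood at 11.27, 11.68, 11.05, 11.21, 10.33 and 10.94, with little difference among the 6. Sprr1a, a small proline-rich envelope precursor, stood at 13.08, 13.18, 12.18, 10.30, 10.39 and 10.15. Sbsn, a secreted protein of differentiating keratinocytes, stood at 11.56, 10.93, 9.28, 7.84, 8.83 and 7.40. Of the keratinocyte genes that the rule did not use, some were high in all 6 and others in 1 to 3 tumours, as given with each gene, and the set is called the 6 top-ranked tumours below.

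The host group was not used by the rule and could be tested. Among the 6 top-ranked tumours 4 came from sham hosts, 2 from 10 cGy hosts and none from 30 or 80 cGy hosts. The other 30 comprised 9, 6, 9 and 6 tumours of these groups. The odds ratio for a sham host was 4.45 (95% interval 0.529 to 57.6), and sham against Si gave p = 0.161 in a two-sided Fisher's exact test. Over the 4 groups the exact p was 0.171. Sham against Si with the 9 dropped tumours added to the other 30 gave an exact p of 0.199. The interval spans the ratio of no difference and is wide, since only 6 tumours were in the set.

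Across the array, 12164 genes lay above the median of the deposited table (5.67) in at least 6 of the 36 tumours and were tested. A gene with fewer than 6 of the other 30 above this level passed only with the 6 top-ranked tumours counted. This held for Krt16, Crct1, Cnfn, Casp14 and Defb6, among others, and such calls are descriptions. At an adjusted p under 0.05 (limma, Benjamini-Hochberg) 213 genes were higher in the 6 top-ranked tumours, 1.75% of those tested, and 41 were lower, 0.337%. Of the 213, 168 were at least 2-fold higher, against 5 of the 41 at least 2-fold lower. The median difference over all genes tested was -0.06. The array median was slightly higher in the 6 tumours (mean 5.73 against 5.68, exact permutation p = 0.0290, two-sided). After each array was centred on its median, 184 genes were higher and 80 lower, so that the higher share went from 83.9% to 69.7% and the median difference to -0.12. With host group as a covariate the counts were 132 and 15, and without 10 cGy replicate 5 they were 110 and 9. Without sham replicate 3 they were 125 and 23. An epithelial mean that is part of the rule stood at 10.46 to 11.28 in the 6 and 8.66 to 11.34 in the 30.

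The 6 tumours were not alike within this difference. The median of the 213 higher genes was 2.10 above the other 30 in ranks 1 to 3 and 1.10 in ranks 4 to 6, and for 211 genes both triplets lay above. Set alone against the other 30, a comparison added after the values were seen, ranks 1 to 3 gave 244 higher and 76 lower genes, and ranks 4 to 6 gave 22 and 0. The split follows the ranking values, with Krtdap high in ranks 1 to 3. A larger difference of keratinocyte genes in ranks 1 to 3 was therefore built in by the rule, and these counts are a description. The highest of the 36 values was in 10 cGy replicate 5 for 103 of the 213 genes and in sham replicate 3 for 57. It was in sham replicate 11 for 24, in sham replicate 17 for 7, in 10 cGy replicate 8 for 3, in sham replicate 8 for 2 and in 1 of the other 30 for 17.

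Keratinocyte genes made up a large part of the higher side. The 8 lists of squamous differentiation genes held 206 genes, of which 187 were on the array, 107 were tested, 54 were called higher and 0 lower. With no filter on low values, 97 of the 187 were called higher and 0 lower, against 322 of 18813 called higher over all genes. Without 10 cGy replicate 5 the 54 became 32, without sham replicate 3 it was 40, and with host group as a covariate 41. These genes belong to the same programme as the ranking genes, so the counts describe how far the programme extended and do not support it independently.

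**Figure D2:**
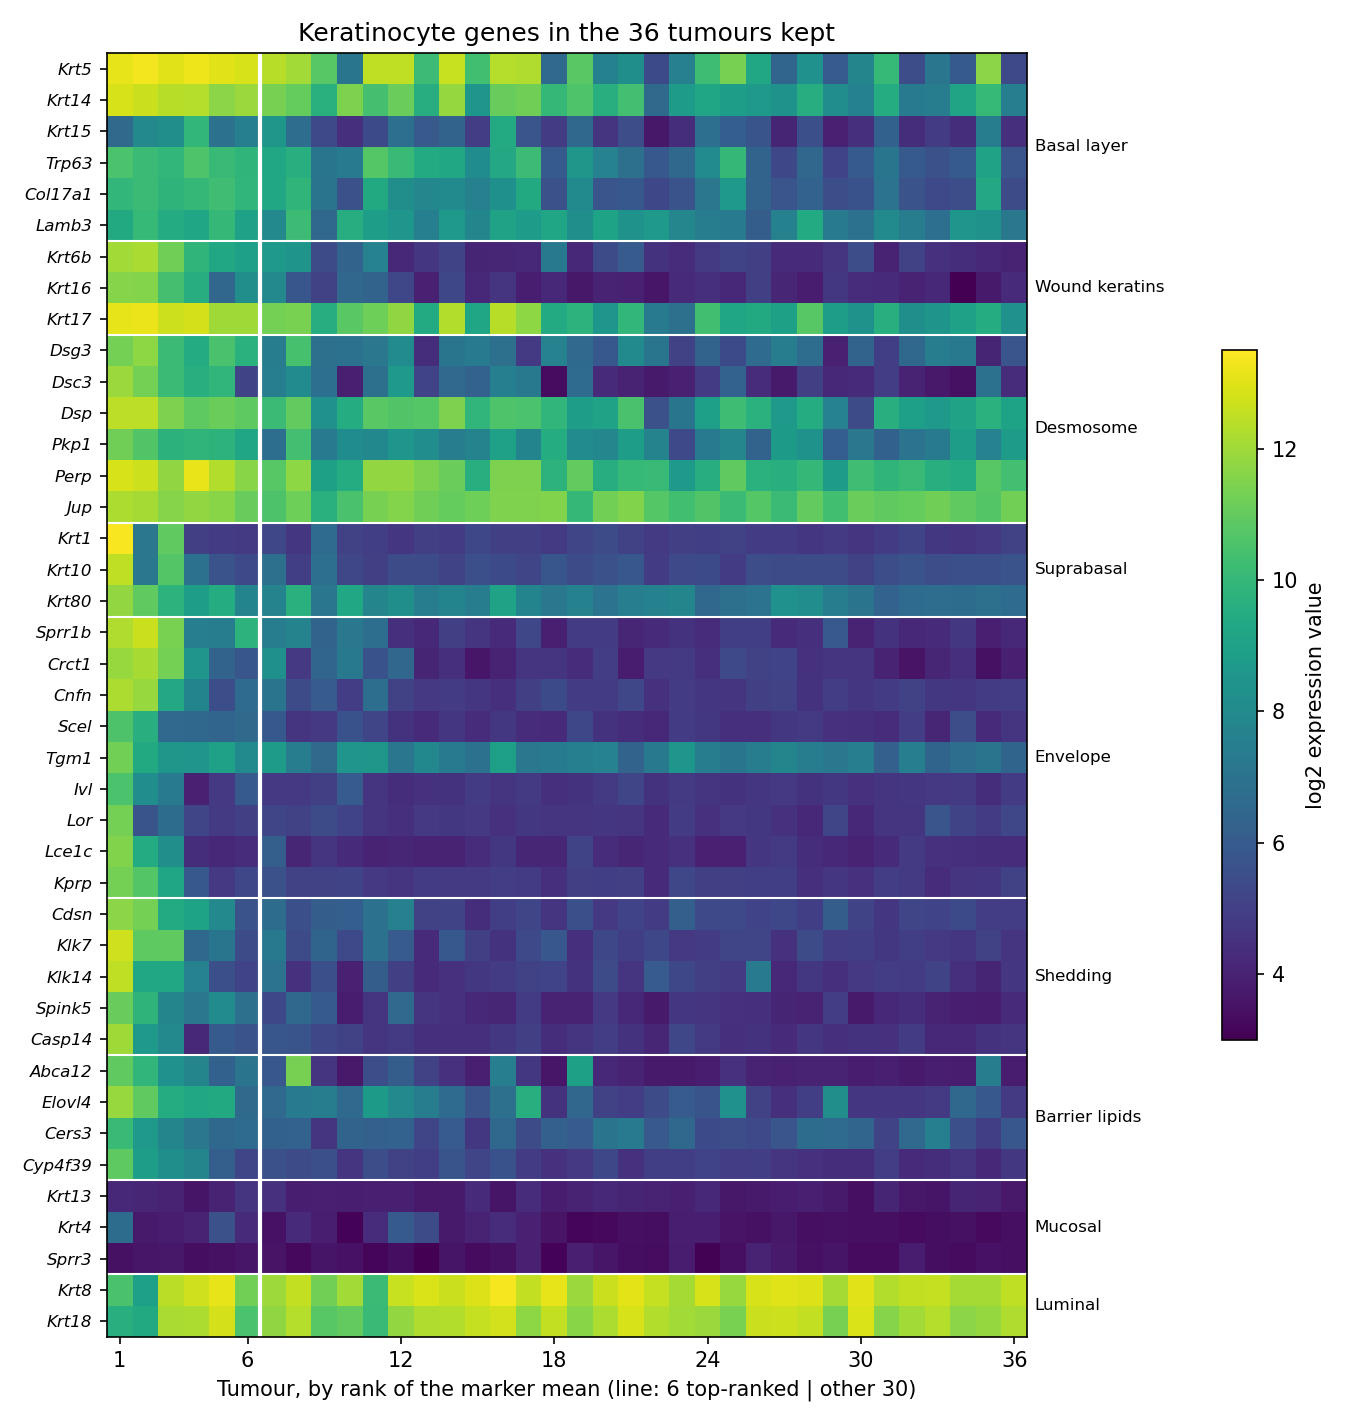
Log2 expression (colour) of keratinocyte and luminal genes (rows, grouped by role) in the 36 tumours kept, ordered by rank (columns); the vertical line follows rank 6. Krt5, Krt14 and the desmosome genes were high in most or all of the 6 columns at the left, whereas Krt1, Lor, Lce1c and Kprp were high only in columns among the first 3.

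Krt5, Krt14 and Col17a1, genes of the basal layer, were high in all 6 tumours. Krt5 stood at 13.10, 13.32, 13.01, 13.21, 13.03 and 12.86, against 5.33, 9.66 and 12.62 in the other 30. No tumour of the other 30 reached the lowest of the 6, although several came within 1 log2 unit of it. The difference was 3.88 ± 1.00 (SE; limma adjusted p = 0.0287). Krt14, the partner of Krt5 in basal filaments, stood at 12.88, 12.65, 12.39, 12.33, 11.68 and 11.94, against 6.65, 9.55 and 11.82, and differed by 2.83 ± 0.56 (limma adjusted p = 0.00202). Only 1 of the 30 lay above the lowest of the 6.

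Col17a1, which encodes the hemidesmosome collagen BP180, had a narrow spread, with values of 9.94, 10.17, 9.81, 9.98, 10.26 and 9.90 against 5.30, 6.67 and 9.88. Its difference was 3.00 ± 0.60, about the same in ranks 1 to 3 (2.96) and ranks 4 to 6 (3.04). Krt15, a keratin of basal and follicle cells, differed by 2.29 ± 0.57 and was highest in sham replicate 11, at 9.96. Lamb3, a laminin-332 chain that anchors hemidesmosomes, differed by 1.40 ± 0.39. In the basal and myoepithelial list 5 of 20 tested genes were called, these 5, and 0 were lower; its median difference was 0.87. The 5 calls became 3 without 10 cGy replicate 5 or sham replicate 17, and 2 without sham replicate 3, 8 or 11 or with host group as a covariate. Smooth muscle actin, Acta2, which marks contractile myoepithelium, differed by 0.23 ± 0.32 and was not called. The calls of Krt5 and Lamb3 were lost without any 1 of 10 cGy replicate 5 or sham replicates 3, 8, 11 and 17 (limma adjusted p 0.0541 to 0.0909 and 0.0598 to 0.154), and that of Krt15 without sham replicates 3, 8 or 11 (0.0524 to 0.104). With host group as a covariate their adjusted p was 0.0998, 0.129 and 0.153.

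Mir205 stood at 6.67, 7.49, 5.88, 5.91, 6.70 and 6.22, against 3.31, 4.10 and 5.61, and every one of the 6 lay above the other 30. Its difference of 2.20 ± 0.30 (limma adjusted p = 7.72e-06) was similar in ranks 1 to 3 (2.40) and 4 to 6 (1.99). None of the other 30 lay above the filter level of 5.67, so the gene was tested only because the 6 were high, and its call and its lack of overlap are a description that supports nothing further. P2ry1, an ADP receptor gene, stood at 8.40, 8.56, 6.96, 6.98, 6.93 and 7.29, against 5.05, 6.03 and 6.92, with a difference of 1.51 ± 0.24. Its lowest value in the 6 exceeded the highest of the 30 by very little. Mir205 and P2ry1 were named after their values were seen, because they, Krt6b, Spink5, Krt5 and Scel were the 6 tested genes whose sets did not overlap; no tested gene was lower in all 6 than in the other 30. Limma called 1.75% of the 12164 genes tested higher. Scel and Spink5, with 1 and 3 of the other 30 above the filter level, also passed the filter only with the 6 counted.

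Trp63, the gene of p63, stood at 10.54, 10.16, 9.95, 10.60, 10.12 and 9.86, against 5.10, 7.20 and 10.72. The 6 lay close together at the upper end of a wide range, and 4 of the 30 lay above the lowest of them. The difference was 2.58 ± 0.68 (limma adjusted p = 0.0337), and it was alike in ranks 1 to 3 (2.59) and 4 to 6 (2.57). Without any 1 of 10 cGy replicate 5 or sham replicates 3, 8, 11 and 17 the adjusted p was 0.0556 to 0.117, and with host group as a covariate 0.122.

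**Figure D3:**
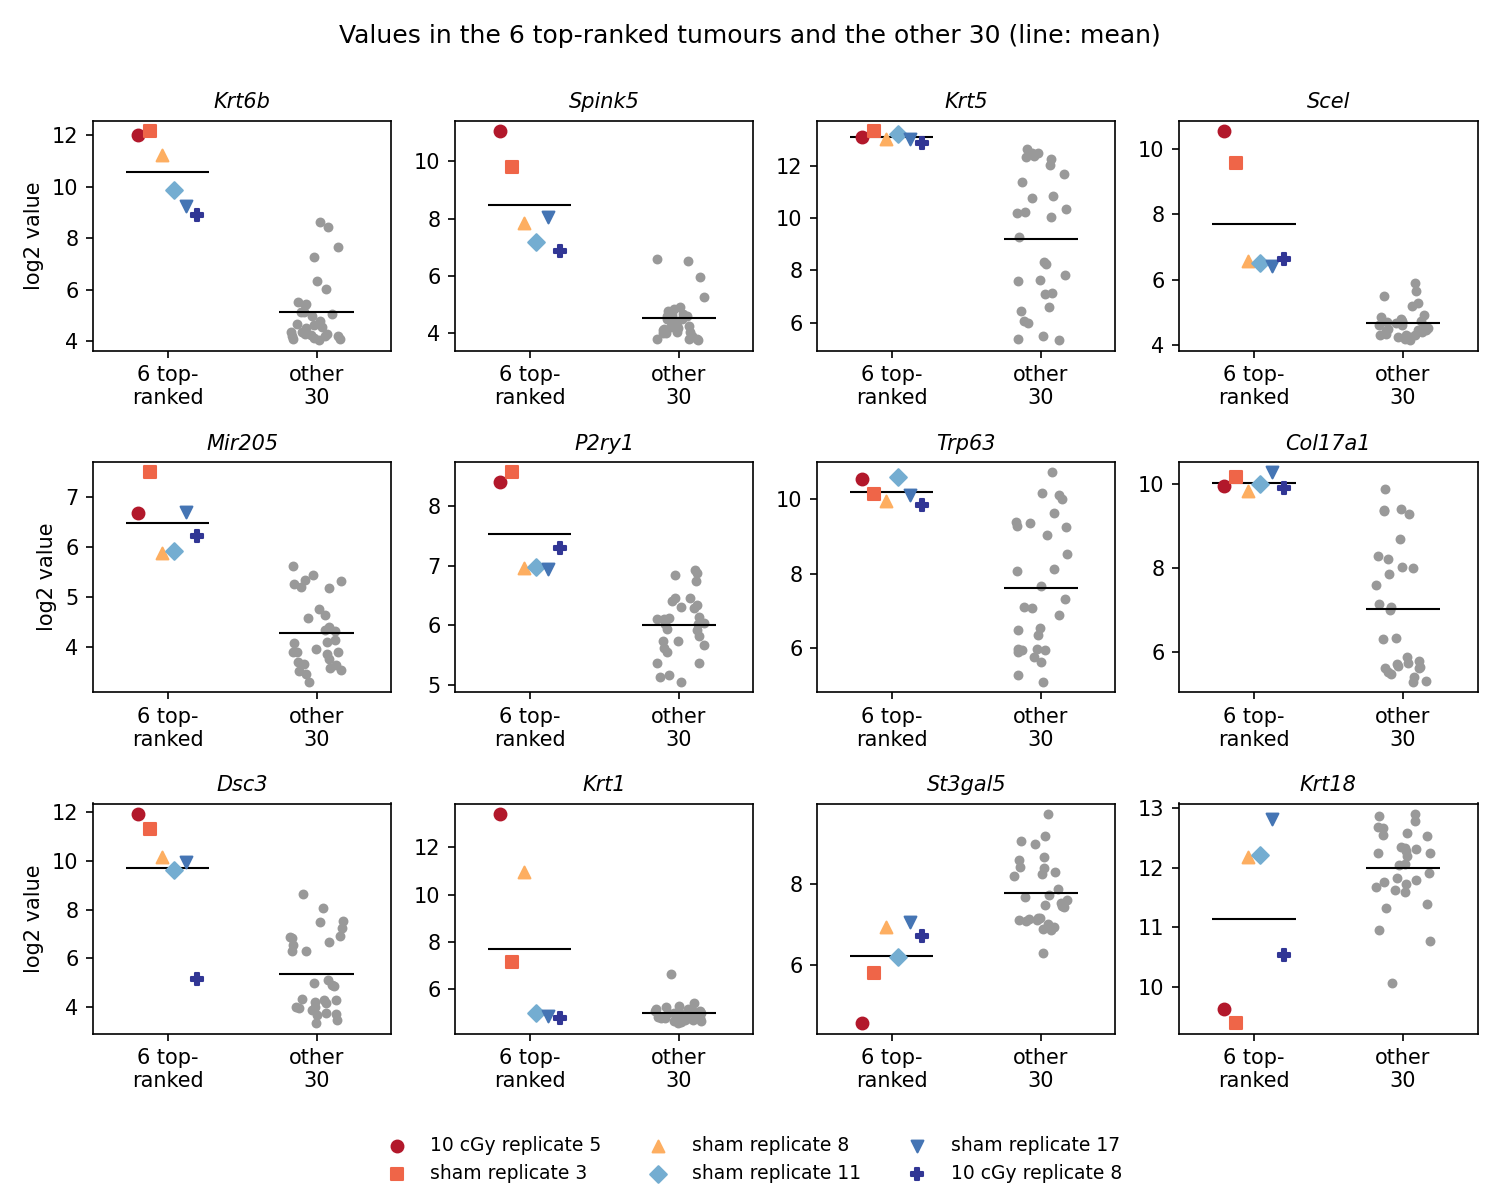
Log2 value of 12 genes (vertical axes, 1 panel each) in the 6 top-ranked tumours (coloured symbols) and in the other 30 (grey points); horizontal lines are means. Krt6b, Spink5, Krt5, Scel, Mir205 and P2ry1 did not overlap between the sets, Dsc3 was low in 10 cGy replicate 8 (5.17), and Krt1 was high in 10 cGy replicate 5 (13.40) and sham replicate 8 (10.95).

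Among keratins of wounded and hyperproliferative epidermis, Krt6b had the largest difference of all genes tested. Krt6b stood at 12.03, 12.17, 11.24, 9.86, 9.25 and 8.91, against 4.03, 4.64 and 8.62. All 6 lay above the other 30, and the difference was 5.43 ± 0.57, or 43.1-fold (limma adjusted p = 5.54e-08). Krt6a and Krt6b are near-identical copies, so their probe sets may share signal, and the same caution holds for Krt90 of the same keratin cluster (3.80 ± 0.58).

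Krt16, the type I partner of the Krt6 keratins, stood at 11.61, 11.57, 10.41, 9.53, 6.47 and 8.18, against 3.01, 4.21 and 7.93. Sham replicate 17 lay within the range of the other 30, and the difference was 5.08 ± 0.52 (33.8-fold). Krt17, which is also induced in wounds, stood at 13.11, 13.17, 12.70, 12.83, 12.00 and 11.99, against 6.87, 9.48 and 12.36, with a difference of 2.91 ± 0.57. It was high in all 6, and 2 of the 30 lay above the lowest of them.

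Desmosome genes followed, with 7 of 11 tested genes called higher and 0 lower (14 on the array, median difference 2.14, or 1.49 with no filter). Dsg3, a desmosomal cadherin of lower epidermal layers, stood at 11.32, 11.70, 10.15, 9.47, 10.49 and 9.70, against 3.98, 6.81 and 10.43. A single tumour of the 30 lay above the lowest of the 6, and the difference was 3.92 ± 0.56. Dsc3, its partner cadherin, stood at 11.90, 11.30, 10.16, 9.60, 9.93 and 5.17, against 3.36, 4.89 and 8.63. It was high in 5 tumours and near the median of the other 30 in 10 cGy replicate 8, with a difference of 4.32 ± 0.74.

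Perp, which encodes a desmosome membrane protein, stood at 12.86, 12.71, 11.78, 13.14, 12.28 and 11.62, against 8.65, 10.06 and 11.81, and differed by 2.14 ± 0.38. Pkp1, a plaque protein, differed by 2.27 ± 0.44, Dsp, which ties desmosomes to keratin, by 2.22 ± 0.58, and Jup, encoding plakoglobin, by 0.84 ± 0.22. Cdsn, encoding the corneodesmosin of the outermost layers, fell along the ranks from 11.66 and 11.30 through 9.40, 9.09 and 7.93 to 5.70, against 4.37, 5.17 and 7.57. Its difference was 3.78 ± 0.47, and only its lowest value lay within the range of the 30. The call of Dsp was lost without 10 cGy replicate 5, sham replicate 3 or sham replicate 8 (limma adjusted p 0.0549 to 0.144) and with host group as a covariate (0.064). That of Jup was lost without 10 cGy replicate 5, sham replicate 3 or sham replicate 11 (limma adjusted p 0.0561 to 0.144).

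The suprabasal keratins Krt10 and Krt1 were highest in ranks 1 and 3. Krt10, the type I keratin of the spinous layer, stood at 12.48, 7.18, 10.69, 6.94, 5.70 and 5.31, against 4.87, 5.44 and 6.89, and differed by 2.56 ± 0.51 (limma adjusted p = 0.00202). Its partner Krt1, not tested because too few tumours lay above the filter level, stood at 13.40, 7.17, 10.95, 4.99, 4.86 and 4.77, against 4.56, 4.96 and 6.65. Both keratins were abundant in 10 cGy replicate 5 and sham replicate 8. They were much lower in sham replicate 3, although that tumour ranked second, but still lay above all of the other 30 there. Krt80, an embedded keratin of differentiating epithelia, differed by 2.27 ± 0.40 and was higher in sham replicate 3 (10.95) than in sham replicate 8 (9.79). The mucosal genes Krt13, Krt4 and Sprr3 were not tested either. Krt13 did not exceed 4.63 and Sprr3 did not exceed 3.67 in the 6 tumours, and Krt4 reached 6.71 in 10 cGy replicate 5. Of 15 suprabasal, mucosal and wound keratins on the array 7 were tested and 5 were called higher (median difference 2.56). With no filter on low values 7 of the 15 were called higher, and the median difference was 0.97.

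Envelope precursors differed widely between the first and the last 3 of the 6 tumours. Sprr1b stood at 12.25, 12.68, 11.40, 7.50, 7.44 and 9.80, against 3.93, 4.54 and 7.69. A single tumour of the 30 lay above the lowest of the 6, and the difference was 5.23 ± 0.57 (37.4-fold; limma adjusted p = 1.71e-07). Crct1, a cysteine-rich protein gene of the epidermal differentiation complex, stood at 11.87, 12.12, 11.31, 8.47, 6.34 and 5.81, against 3.48, 4.59 and 8.27, and differed by 4.52 ± 0.64. Cnfn, encoding cornifelin, stood at 12.22, 11.88, 9.34, 7.74, 5.50 and 6.66, against 4.40, 4.88 and 7.03, and differed by 3.86 ± 0.51.

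Scel, encoding sciellin, stood at 10.55, 9.58, 6.57, 6.50, 6.41 and 6.63, against 4.14, 4.58 and 5.89. The 6 did not overlap the 30, the last 4 of them were alike, and the difference was 3.03 ± 0.35 (limma adjusted p = 6.25e-07). Tchh, encoding the trichohyalin of follicle and tongue epithelium, stood at 12.05, 4.91, 9.76, 7.44, 5.67 and 4.93, against 4.07, 4.82 and 7.34. It differed by 2.42 ± 0.57, and its call was lost without 10 cGy replicate 5 (limma adjusted p = 0.147). Tgm1, the crosslinking transglutaminase, differed by 1.72 ± 0.34, and Ppl, encoding periplakin, by 1.10 ± 0.31. The call of Ppl was lost without any 1 of 10 cGy replicate 5 or sham replicates 3, 8, 11 and 17 (limma adjusted p 0.052 to 0.291) and with host group as a covariate (0.235).

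Late envelope genes were present in ranks 1 to 3 and near baseline elsewhere, and most were too low in the other tumours to be tested. Lce1c, a late cornified envelope gene, stood at 11.49, 9.48, 8.17, 4.38, 4.17 and 4.32, against 3.96, 4.30 and 6.18. Kprp, a keratinocyte proline-rich protein gene, stood at 11.30, 10.70, 9.23, 5.88, 4.73 and 5.24, against a highest value of 5.60 in the other 30. Ivl, encoding the early scaffold protein involucrin, stood at 10.51, 8.16, 7.38, 3.94, 4.74 and 5.99, against a highest value of 6.01.

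Lor, encoding loricrin, the main envelope protein of the granular layer, was high in 10 cGy replicate 5 alone, at 11.31. It stood at 5.71 and 6.70 in ranks 2 and 3 and at 4.77 to 5.19 in ranks 4 to 6, against 4.16, 4.70 and 5.75. Rptn stood at 10.87, 7.16 and 7.36 in ranks 1 to 3 and at 2.93 to 3.42 in ranks 4 to 6. Of 42 listed envelope genes on the array, 9 were tested and 8 of those were called higher; with no filter 31 of the 42 were called higher and 0 lower. Without 10 cGy replicate 5 the 8 became 5. The mean of the 42 genes was 8.86, 7.63, 6.58, 5.04, 4.59 and 4.95, against 4.21, 4.36 and 4.91, and 3 of the 30 lay above the lowest of the 6. Copies within the Sprr2 and Lce families are similar in sequence, and their probe sets may share signal.

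Many of these genes are neighbours. In the RefSeq gene order the block from S100a11 to S100a1 on chromosome 3, the epidermal differentiation complex with its flanking S100 genes, held 69 coding genes, of which 55 were on the array. Leaving out Sprr1a, 39 of 54 lay more than 1 log2 unit above the mean of the other 30 in ranks 1 to 3, and 6 did so in ranks 4 to 6. The share of all genes beyond this limit was not computed for either triplet. Of the 15 that were tested 7 were called higher and 0 lower, against 1.75% called higher over all genes tested. With no filter 31 of the 54 were higher, against 322 of 18813 over all genes. The block holds the similar Sprr2 and Lce copies, whose probe sets may share signal, so these counts are not of independent genes. A smaller block on chromosome 7 holds the ranking genes Sbsn and Krtdap on either side of Dmkn, which encodes dermokine. Dmkn stood at 12.10, 10.21, 9.85, 7.66, 9.27 and 6.52, against 3.77, 4.83 and 7.35, and differed by 4.22 ± 0.52 (limma adjusted p = 2.06e-06). Unlike Krtdap beside it, Dmkn stayed above most of the other 30 in ranks 4 to 6, with 4 of the 30 above its lowest value.

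**Figure D4:**
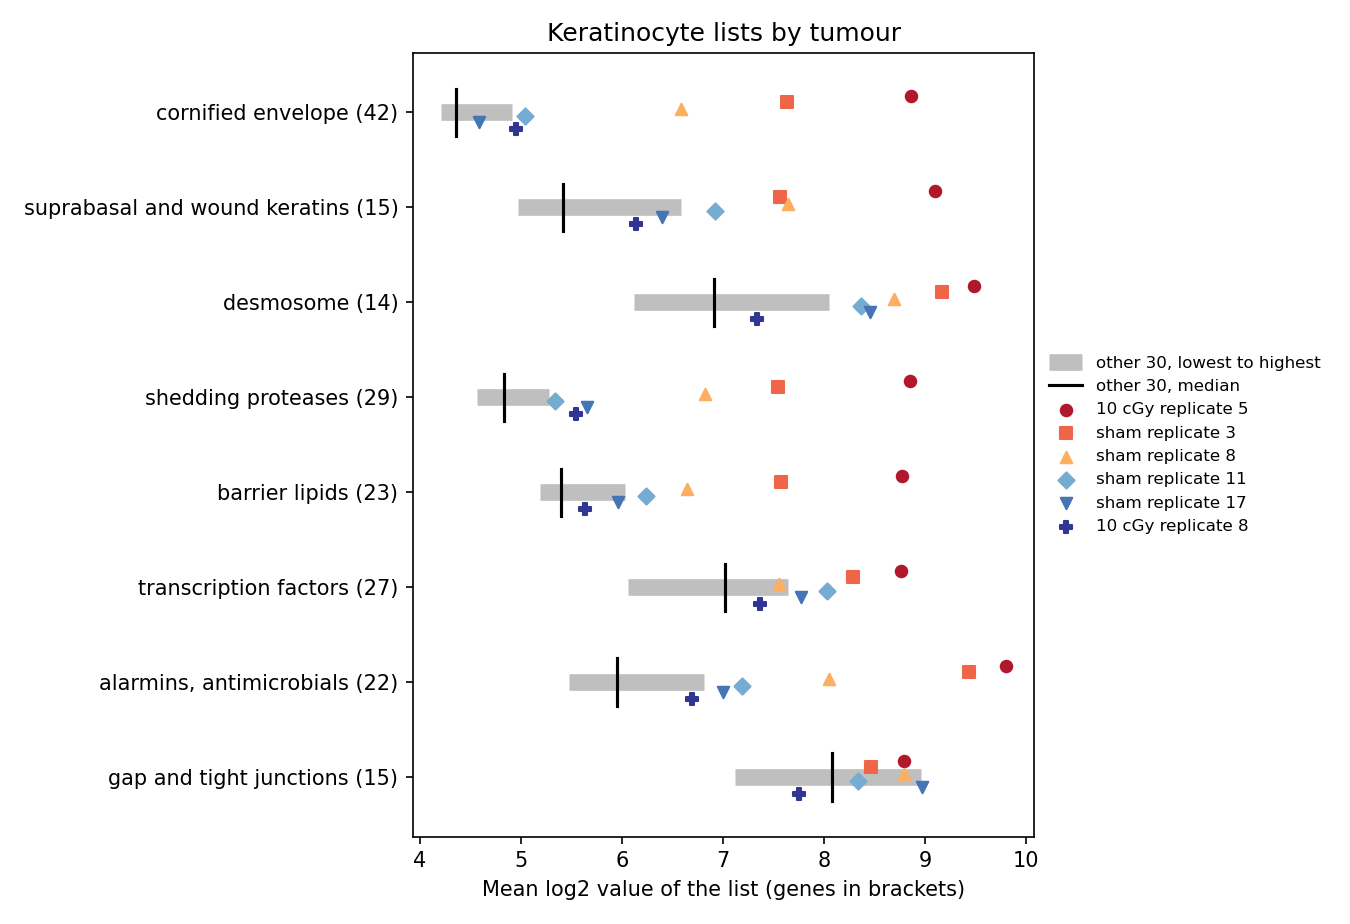
Mean log2 value (horizontal axis) of 8 lists of squamous differentiation genes (rows, number of genes in brackets) in each of the 6 top-ranked tumours (symbols) and in the other 30 (bar from lowest to highest, line at the median). On the envelope list the first 3 tumours stood at 6.58 to 8.86 and the last 3 at 4.59 to 5.04, beside the range of the other 30, which ended at 4.91; on the gap and tight junction list the 6 stood at 7.76 to 8.97, against 7.12 to 8.96.

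Among genes of shedding, 11 of 15 tested genes were called higher and 0 lower (29 on the array, median difference 2.29, or 1.71 with no filter). The list mean of each of the 6 tumours (5.34 to 8.85) lay above every one of the other 30 (highest 5.28). Spink5, encoding the inhibitor LEKTI that restrains kallikreins, stood at 11.07, 9.82, 7.84, 7.19, 8.06 and 6.86, against 3.74, 4.32 and 6.59. All 6 lay above the other 30, with a difference of 3.97 ± 0.40, or 15.7-fold (limma adjusted p = 5.54e-08). Klk7, a kallikrein that cleaves corneodesmosin, stood at 12.73, 10.89, 10.92, 6.49, 7.08 and 5.44, against 4.30, 5.03 and 7.23. It was high in the first 3 tumours only, and differed by 3.70 ± 0.56.

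Klk14, another kallikrein, differed by 3.25 ± 0.55 and was also high in ranks 1 to 3 (12.50, 9.25 and 9.30). Casp14, a caspase of terminal keratinocyte differentiation, stood at 11.99, 8.70, 7.93, 4.18, 5.99 and 5.68, against 4.15, 4.57 and 5.79. Its difference of 2.73 ± 0.49 came mainly from ranks 1 to 3 (4.86, against 0.60 in ranks 4 to 6). Asprv1, a retroviral-like protease of the granular layer, differed by 2.52 ± 0.57, a call lost without 10 cGy replicate 5 (limma adjusted p = 0.107) and with host group as a covariate (0.0928). Without 10 cGy replicate 5 the 11 calls of this list became 5, without sham replicate 3 they were 6, without sham replicate 8 they were 7, and with host group as a covariate 6.

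Barrier lipid genes were called in 5 of 13 tested cases (23 on the array, median difference 1.08, or 1.35 with no filter), with 0 lower. Cyp4f39, a hydroxylase of ultra-long fatty acids, stood at 10.88, 8.90, 8.24, 7.79, 6.18 and 5.21, against 4.15, 4.91 and 5.72, and differed by 2.97 ± 0.38. Elovl4, which elongates very long fatty acids, differed by 3.41 ± 0.64, Cers3, the ceramide synthase for those acids, by 1.81 ± 0.37, and Sult2b1, which makes cholesterol sulphate, by 1.90 ± 0.40. Abca12, the lipid transporter of lamellar granules, stood at 10.96, 9.92, 8.32, 7.77, 6.25 and 7.05, against 3.63, 4.05 and 11.34.

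Abca12 differed by 3.51 ± 0.77, but its highest value was in one of the other 30. Alox12b, Sdr9c7 and Pnpla1, which act on the lipids bound to the envelope, were not tested, and stood at 9.18, 9.55 and 10.05 in 10 cGy replicate 5 against highest values of 4.54, 3.81 and 5.45 in the other 30. The calls of Abca12, Cers3 and Sult2b1 were lost without 10 cGy replicate 5 (limma adjusted p 0.0654, 0.0504 and 0.0529), which left 2 of the 5. By contrast Cers2, the ceramide synthase of most other tissues, was lower: it stood at 9.81, 10.66, 10.87, 10.49, 11.05 and 10.58, against 10.88, 11.28 and 11.82, with a difference of -0.73 ± 0.14 (limma adjusted p = 0.00101). Of the 6, 5 lay below every one of the other 30.

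Transcription factors of keratinocyte differentiation had a median difference of 0.97, below those of the envelope (2.51) and desmosome (2.14) lists. With no filter these medians were 0.97, 1.73 and 1.49. Of the transcription factors, 9 of 24 tested genes were called higher and 0 lower. Besides Trp63 these included Klf4, a factor of barrier formation, which stood at 10.79, 9.49, 9.25, 8.40, 8.65 and 8.42 against 5.95, 7.33 and 9.36 and differed by 1.72 ± 0.35. Ovol1, which promotes exit from the cell cycle in suprabasal cells, differed by 1.96 ± 0.37, Sox15 by 1.70 ± 0.35, Hopx by 1.69 ± 0.33 and Klf5 by 0.97 ± 0.21. Grhl3, a Grainyhead-like factor of the barrier, differed by 1.76 ± 0.49, and Zfp750, a p63 target that drives terminal differentiation, by 1.68 ± 0.48 without being called (limma adjusted p = 0.0571).

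Dlx5 departed from the ranking. It stood at 8.43, 5.64, 6.25, 12.56, 8.40 and 6.34, against 5.01, 5.89 and 8.48, with its highest value in sham replicate 11 and a difference of 2.05 ± 0.51. Its call was lost without sham replicate 11 (limma adjusted p = 0.13), 10 cGy replicate 5 (0.091) or sham replicate 17 (0.0574). Those of Grhl3 and Tfap2a were lost without any 1 of 10 cGy replicate 5 or sham replicates 3, 8, 11 and 17 (0.0521 to 0.212 and 0.0637 to 0.209), and that of Klf5 without 10 cGy replicate 5 (0.0593). The 9 calls became 4 without 10 cGy replicate 5, 5 without sham replicate 17, and 6 without sham replicate 3, 8 or 11 or with host group as a covariate.

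The list of keratinocyte alarmin and antimicrobial genes also holds the Ly6 family genes Ly6d, Ly6g6c and Lypd3, and Calml3 and S100a14. On it 8 of 15 tested genes were called higher and 0 lower (22 on the array, median difference 1.77, or 2.13 with no filter). Those named were all among the 8 calls, so the count is not one of alarmins and antimicrobial genes alone. Defb6, a beta-defensin, stood at 12.43, 12.71, 8.52, 5.48, 7.13 and 3.97, against 3.46, 3.87 and 8.69, and differed by 4.10 ± 0.77. Within the 6 it ran from 12.71 down to a value near the median of the other 30. Defb3 and Defb4, not tested, stood at 10.35 and 11.78 in 10 cGy replicate 5 and at 3.09 and 2.76 in 10 cGy replicate 8. The Ly6 family genes Ly6g6c, Ly6d and Lypd3 differed by 3.67 ± 0.53, 3.57 ± 0.76 and 2.54 ± 0.43.

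Il1f9, the older symbol of the IL-36 gamma gene, stood at 10.87, 10.17, 7.43, 4.19, 4.63 and 7.40, against 3.58, 4.53 and 6.89, and differed by 2.54 ± 0.61. It was high in 4 tumours and near the median of the other 30 in sham replicates 11 and 17, and its call was lost without 10 cGy replicate 5 (limma adjusted p = 0.169) or sham replicate 3 (0.127). S100a8, a calprotectin subunit made by stressed keratinocytes and by neutrophils, stood at 10.99, 10.98, 7.36, 5.01, 5.48 and 7.60, against 4.33, 6.00 and 8.25, and was not called (1.78 ± 0.62, limma adjusted p = 0.143). Its partner S100a9 differed by 1.86 ± 0.61 and Il1a by 1.77 ± 0.53, also without a call (0.112 and 0.0704). The neutrophil list holds S100a8 and S100a9 themselves, so its mean had to move with them in part. That mean, over 15 genes, was 7.19, 7.94, 5.65, 4.73, 5.09 and 6.90, against 4.52, 5.57 and 7.07. Its part in the alarmin values was not tested. In that list 1 of 11 tested genes was called, Stfa1, a cysteine protease inhibitor (2.04 ± 0.44), and not without 10 cGy replicate 5 (0.0712).

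Gap and tight junction genes showed little of this pattern, with 1 of 13 tested genes called. Gja1, encoding connexin 43, differed by 1.13 ± 0.29, a call lost without 10 cGy replicate 5, sham replicate 3, sham replicate 8 or 10 cGy replicate 8 (limma adjusted p 0.0534 to 0.141) and with host group as a covariate (0.102). Gjb2, encoding connexin 26, differed by 2.30 ± 0.71 and Cldn1 by 1.45 ± 0.42, and neither was called. The median difference of the list was 0.19, against -0.06 over all genes tested. With no filter it was 0.45, against -0.04 over all genes.

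Signalling lists each held at most 1 call on the higher side. Epgn, which encodes the EGF receptor ligand epigen, was called among 11 ErbB genes. It stood at 9.64, 7.45, 8.36, 8.56, 6.82 and 6.40, against 4.32, 5.40 and 7.91, with a difference of 2.33 ± 0.42. Egfr itself differed by 0.81 ± 0.28 and was not called (limma adjusted p = 0.143). Among 16 Notch genes the ligand Jag1 was called (1.24 ± 0.30), but not without 10 cGy replicate 5 (0.126) or sham replicate 3 (0.0682), and Notch1 differed by -0.09 ± 0.23. Of 18 Wnt and 17 TGF-beta and BMP genes tested, 0 were called at the adjusted threshold by limma.

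Cell cycle genes each had a negative difference, 22 of 22, a median of -0.32 and 0 calls, against 7384 of 12164 negative over all genes; Mki67, a proliferation marker, differed by -0.38 ± 0.19. The list mean was 8.42, 8.66, 8.73, 9.64, 8.73 and 8.85, against 7.93, 9.13 and 9.68, so sham replicate 11 lay near the top of the other 30 and the other 5 below their median. Hypoxia and glycolysis genes leaned higher, with 18 of 19 positive and a median of 0.47. The glucose transporter gene Slc2a1 was the 1 call of that list (0.89 ± 0.25), lost without any 1 of the 6 tumours (limma adjusted p 0.0515 to 0.134). Other calls on these remaining lists were Gsto1 (1.43 ± 0.26) and Aldh3b2 (2.12 ± 0.58) among 17 oxidative stress and xenobiotic genes, Hmgcs1 of sterol synthesis (0.65 ± 0.18), Serpinb5, encoding maspin (1.69 ± 0.35), and Bcl11b (1.36 ± 0.28). Those of Hmgcs1 and Aldh3b2 were lost without any 1 of 10 cGy replicate 5 or sham replicates 3, 8, 11 and 17 (0.0602 to 0.266 and 0.0543 to 0.241), and that of Bcl11b without 10 cGy replicate 5 (0.0504).

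Genes called lower changed by smaller amounts. St3gal5, the synthase of the ganglioside GM3, stood at 4.58, 5.81, 6.95, 6.21, 7.06 and 6.72, against 6.30, 7.56 and 9.70. Its difference of -1.55 ± 0.36 was the largest on this side, it was lowest in 10 cGy replicate 5, and the sets overlapped. The call was lost without 10 cGy replicate 5 (limma adjusted p = 0.128) or sham replicate 3 (0.055). As3mt, an arsenic methyltransferase gene, differed by -0.99 ± 0.23 (lost without sham replicate 11, 0.0699), and Ada, encoding adenosine deaminase, by -0.84 ± 0.22 (lost without 10 cGy replicate 5 or sham replicates 3, 11 or 17, 0.0669 to 0.145).

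Further genes among the largest negative differences were Cystm1 (-1.52 ± 0.40), P2ry12, a purine receptor gene (-1.09 ± 0.29), Abhd2 (-1.05 ± 0.28), Tmem223 (-1.05 ± 0.27), Zfp521 (-0.95 ± 0.25), Golm1 (-0.91 ± 0.22) and Arsb, encoding arylsulfatase B (-0.84 ± 0.19). All but Tmem223 lost the call without 10 cGy replicate 5 (limma adjusted p 0.0935 to 0.21), and Tmem223 lost it without sham replicate 3, 8 or 11 (0.0804 to 0.16). The calls of Cystm1, P2ry12, Abhd2, Golm1 and Arsb were also lost without sham replicate 11, those of Cystm1, Abhd2 and Zfp521 without sham replicate 3, that of P2ry12 without sham replicate 8 or 17, and that of Cystm1 without 10 cGy replicate 8. With host group as a covariate all 7 were lost (0.0511 to 0.177).

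On the higher side Mill1, an MHC class I-like gene on no list here, stood at 8.31, 11.29, 8.43, 4.21, 9.09 and 10.26, against 3.78, 4.28 and 8.25. It was above all of the other 30 in 5 tumours and near their median in sham replicate 11, with a difference of 3.86 ± 0.60.

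Of 22 oxidative phosphorylation genes 2 were called lower and 18 were negative, with a median of -0.16. Ndufa2, a complex I subunit, stood at 8.53, 8.47, 8.78, 8.60, 9.24 and 8.50, against 8.83, 9.28 and 9.84, and differed by -0.56 ± 0.12. Of the 6, 5 lay below all of the other 30; its call held when any 1 tumour was left out, and was lost when Krt6a was left out of the ranking (limma adjusted p = 0.13). Sdhd, a complex II subunit, differed by -0.57 ± 0.15, a call lost without 10 cGy replicate 5, sham replicate 3 or 10 cGy replicate 8 (0.0629 to 0.207).

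Luminal genes divided the 6 tumours. Krt8, a keratin of simple and luminal epithelium, stood at 10.47, 8.94, 12.42, 12.73, 13.10 and 11.25, against 10.17, 12.55 and 13.36, and Krt18, its partner, at 9.63, 9.39, 12.18, 12.22, 12.82 and 10.54, against 10.07, 12.13 and 12.90. Both were low in 10 cGy replicate 5 and sham replicate 3 and at the level of the other 30 in sham replicates 8, 11 and 17. Neither was called (-0.95 ± 0.37 and -0.87 ± 0.36, limma adjusted p 0.198 and 0.24). The mean differences were -1.83 and -1.60 in ranks 1 to 3 and -0.07 and -0.14 in ranks 4 to 6, a split added after the values were seen. These means do not describe each tumour. Sham replicate 8 stood near the medians of the other 30, and 10 cGy replicate 8 (11.25 and 10.54) lay below them.

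Of 17 luminal genes 0 were called and 12 were negative (median -0.27), and of 14 tested milk and alveolar genes 0 were called and 12 were negative (median -0.72). Elf5 (-0.55 ± 0.57) and Kit (-0.36 ± 0.48), genes of luminal progenitors, the hormone receptor genes Esr1 (0.54 ± 0.40) and Pgr (0.68 ± 0.64), and Vim (-0.24 ± 0.15), encoding the mesenchymal filament vimentin, were not called. In ranks 4 to 6, the means of Esr1 and Pgr were 1.24 and 1.58 above the other 30, and in ranks 1 to 3 they were -0.16 and -0.22. The luminal list mean was lowest in sham replicate 3, at 7.15, below all of the other 30 (7.43 to 10.07).

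**Figure D5:**
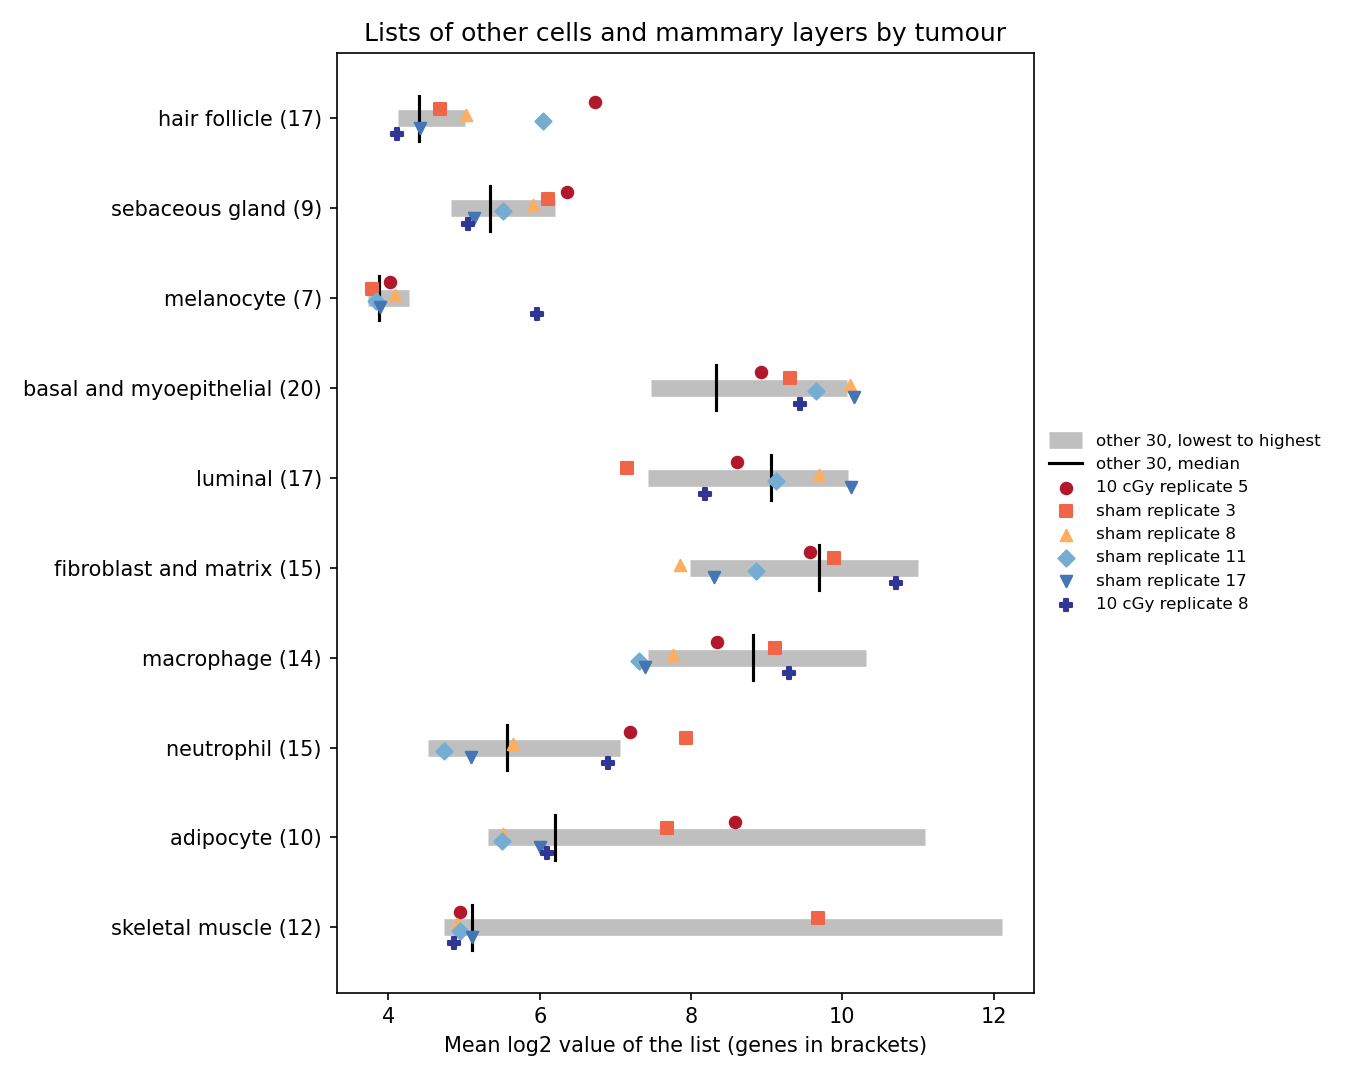
Mean log2 value (horizontal axis) of 10 lists of skin appendage, mammary and stromal genes (rows, number of genes in brackets) in each of the 6 top-ranked tumours (symbols) and in the other 30 (bar from lowest to highest, line at the median). Hair follicle genes were high in 10 cGy replicate 5 (6.74) and sham replicate 11 (6.04), melanocyte genes in 10 cGy replicate 8 (5.96) and muscle genes in sham replicate 3 (9.68).

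Genes of skin appendages and of tissue next to the tumour were present in single tumours of the set, and these genes were named after their values were seen. Krt25 and Krt27, keratins of the inner root sheath of the hair follicle, stood at 10.35 and 10.10 in 10 cGy replicate 5 and at 9.58 and 9.34 in sham replicate 11. Krt71, of the same sheath, stood at 8.27 and 10.03 in these tumours. In the other 4 of the set these 3 genes did not exceed 5.39, and in the other 30 they reached 5.84, 6.12 and 6.76. Krt28 and Krt73 were high in 10 cGy replicate 5 alone (10.21 and 12.03), Lhx2, a hair follicle stem cell factor, in sham replicate 11 alone (8.56), and the hair shaft keratins Krt31 and Krt35 did not exceed 4.52 in any of the 6. The hair follicle list had 17 genes on the array, 4 tested and 0 called.

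The pigment genes Dct, Tyrp1 and Mlana stood at 9.95, 7.40 and 6.54 in 10 cGy replicate 8, above all other tumours of the 36, while Tyr, the rate-limiting pigment enzyme, was at 3.08 there. Ckm and Atp2a1 of skeletal muscle stood at 10.58 and 11.37 in sham replicate 3 and at no more than 5.73 and 5.41 in the other 5; in the other 30 they reached 13.27 and 13.39. The part of these tissues in the differences between the sets was not tested. Without sham replicate 3 or 10 cGy replicate 8, Krt6b, Krt16, Sprr1b, Spink5 and Scel were still called. These genes are among those called in every alternative, and none is a muscle or pigment gene. Their calls therefore say nothing about the part of these tissues.

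Macrophage genes leaned lower, with 13 of 13 tested genes negative, a median of -0.79 and 0 calls. The list mean was 8.34, 9.11, 7.76, 7.32, 7.39 and 9.30, against 7.44, 8.82 and 10.32, and was lowest in sham replicates 8, 11 and 17. Fibroblast and matrix genes had a median of -0.48, with 12 of 15 negative and 0 calls, and their mean ran from 7.86 in sham replicate 8 to 10.71 in 10 cGy replicate 8. The T cell, B cell, NK cell, dendritic cell, mast cell, endothelial, adipocyte, sebaceous gland and Langerhans cell lists also had 0 calls by limma. Over the 12164 genes tested, 1.75% were called higher and 0.337% lower. Only 2 B cell, 3 NK cell, 3 Langerhans cell and 4 sebaceous gland genes were tested, so 0 calls there says little.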

How the data were processed

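The values are log2 expression per probe set, deposited by the authors; RMA and the oligo package made them, per the submitters' processing notes (versions not given in the sources used here). Of 35556 probe sets 21218 carried 1 gene symbol in the platform annotation, 1881 several and 12457 none; 18820 genes resulted, each with its probe set of highest mean (1386 had several). RMA equalizes array distributions, so a shift common to most genes would be removed, and log2 values near the lower end carry little order. Promoters were found for 161 of the 213 genes called higher. Trp53 was not analysed here.

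The 6 tumours were fitted against the other 30 with limma 3.58.1 (lmFit, eBayes; R 4.3.3), two-sided, Benjamini-Hochberg over 12164 genes, threshold 0.05, with no covariate. Genes above 5.67 in at least 6 tumours were tested; the 7 genes of the rule were left out. Errors are standard errors. Exact tests used scipy 1.17.1. The code was tested on simulated data. Array number limits precision, and no depth applies.

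Tumours, gene lists and tests were chosen with earlier results of these data known. Named genes were drawn from the 15 largest differences in each direction, those with the smallest p in each list and a set of keratins, regulators and mammary genes; others are said to be chosen after their values were seen. List names absent from the annotation were matched through RefSeq synonyms for 5 genes. Alternatives covered the filter, host group, tumours dropped, size of the set, ranking genes, centring, probe sets, limma settings, array-level covariates, replicate numbers, shared stems of the description codes, and each tumour left out. Ranks 1 to 3 and 4 to 6 alone were added after seeing the data, and were split by the values of Krtdap, a ranking gene.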

Additional observations from a re-analysis of the deposited data

Results flagged for a closer look

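Of 130 genes screened over the 6 top-ranked tumours, 8 had 1 tumour far from the other 5 (6.15%). Chance alone gives about 1 in 20. The genes screened were those chosen for this report. The hair follicle, pigment and muscle genes among them were named after their values were seen, so the share cannot be judged against that rate. Their part in the differences between the sets was not tested.

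Dsc3, a desmosomal cadherin gene, was low in 10 cGy replicate 8, at 5.17, where the other 5 stood at 9.60 to 11.90. Lor, encoding loricrin, was high in 10 cGy replicate 5, at 11.31, with the next tumour at 6.70. Krt28, an inner root sheath keratin gene, was high in the same tumour, at 10.21, with the next at 4.40. Lhx2, a hair follicle transcription factor gene, was high in sham replicate 11, at 8.56, with the next at 5.30. The pigment cell genes Dct and Tyrp1 were high in 10 cGy replicate 8, at 9.95 and 7.40, with the next tumours at 4.40 and 3.96. The muscle genes Ckm and Atp2a1 were high in sham replicate 3, at 10.58 and 11.37, with the next at 5.73 and 5.41.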

How the results depend on the processing

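Against 213 higher and 41 lower genes, counts were 322 and 45 with no filter on low values, 132 and 15 with host group as a covariate, and 385 and 297 for a slope on the ranking mean. The lower count was 67 both with all 45 tumours and with the leading component of unnamed probe sets as a covariate. It was 80 with no tumour dropped, with the top 8 tumours, or with arrays centred, 68 with the top 5, 74 when ranked without Krt6a, and 117 with the epithelial mean as a covariate. Ranks 1 to 3 alone gave 244 and 76, ranks 4 to 6 alone 22 and 0. Leaving out each of the 6 tumours in turn gave 110 to 261 higher and 9 to 69 lower; the low ends came without 10 cGy replicate 5 (110 and 9), with 23 lower genes without sham replicate 3 and 69 without 10 cGy replicate 8. Of the genes called, 130 of the 132 with host group and 107 of the 110 without 10 cGy replicate 5 were among the 213. Replicate numbers as a block gave 211 and 40 (correlation -0.05), and stems of the description codes as a block 210 and 43; the numbers do not pair tumours. The exact p for host group stayed above 0.05 in its 3 forms (0.161, 0.171 and 0.199).

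Of 96 genes followed one by one, 77 were called, and 9 of these were called in all 30 alternatives (Krt6b, Krt16, Sprr1b, Scel, Cdsn, Spink5, Cyp4f39, Dmkn and Mir205). Mir205 passed the filter only through the 6 tumours. Scel, Cyp4f39, Spink5 and Krt16 had 1, 1, 3 and 4 of the other 30 above the filter level. They too passed only with the 6 counted, so their calls are descriptions. Of the 77, 34 lost the call without at least 1 of the 6 tumours and 22 with host group as a covariate, and 0 changed sign. Genes that were not called changed sign as follows, and the cause was not tested. Notch1 became 0.0691 with no tumour dropped, 0.0063 with the top 5, 0.0351 with the top 8 and 0.0319 when ranked without Krt6a. Kit became 0.10 with no tumour dropped, ranged from -0.68 (without sham replicate 8) to 0.13 (without sham replicate 3) when 1 tumour was left out, and was 0.0752 for ranks 4 to 6. Elf5 became 0.35 with no tumour dropped. S100a8 was -0.0913 for ranks 4 to 6. For ranks 1 to 3, Acta2 was -0.13, Esr1 -0.16 and Pgr -0.22.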

Other observations

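Genes of sham replicate 11 deviated by chromosome more than in the other tumours kept, a feature singled out after its values were seen. Each gene was taken relative to its median over the 36 tumours, and a median was formed per chromosome. The SD over chromosomes was 0.271 in sham replicate 11, the highest of 36, with 0.201 in sham replicate 18 next. Its chromosome medians ran from -0.49 on chromosome 19 to 0.42 on chromosome 15. Of the 16 genes on chromosome 10 called higher in the 6 top-ranked tumours, 8 had their highest value in this tumour: Plekhg1, Katna1, Adat2, Hebp2, Perp, Calhm5, Nt5dc1 and Herc4. Over all 213 genes called higher, 24 had their highest value in this tumour. Plekhg1 stood at 10.93, against 8.87 in the next tumour, and Adat2 at 10.15 against 8.42. Of the first 181 genes in order on chromosome 10, 39 were highest in this tumour and the median of the 181 was 0.05. Of the other 362 genes 7 were highest, and the median of the 362 was -0.35. The share of all genes on the array that were highest in this tumour was not computed.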
